A study of Mus musculus with 6 samples.

Results

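C1q-high macrophages of the mouse fetal liver at embryonic day 14.5 (E14.5) were taken as all segmented cells of the section with at least 10 transcripts of C1qa, C1qb and C1qc together. This gate held 3112 of the 117329 cells of the section, or 2.65% (exact binomial 95% interval 2.56 to 2.75), out of 521938 cells in the series. They were described against the 79588 cells of the same section without any C1q transcript, 67.8% of all cells, and 34629 cells with 1 to 9 C1q transcripts lay between these groups. Because the cells were selected on their C1q transcripts, the C1q values are a description and not a finding, and with 1 section from this stage no test across samples was possible. All intervals are exact 95% intervals for counts (Poisson) or shares (Clopper-Pearson) and cover counting error only.

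The section came from the liver of wild-type mice at E14.5, in 5 separate pieces of tissue whose number of embryos is not given in the sources used here, and was profiled on the Xenium platform, which decodes single RNA molecules in place with gene-specific probes, here for 477 genes. The series holds 5 further sections of wild-type mice, 1 for each condition: liver at E13.5, bone marrow at postnatal day 8 (P8), bone marrow at 89 weeks of age, adult spleen without treatment, and spleen of mice injected repeatedly with 40 mg/kg PHZ, an agent that destroys red blood cells. No group carried a deletion, a transgene or a Cre driver. In the E14.5 liver 20952143 gene transcripts lay in cells (median 167), and no control probe without a target, of 20 on the panel, was seen more than 105 times. At most 6 cell names were shared between the E14.5 liver and any other section.

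C1q is the recognition part of the classical complement pathway and is built from the products of C1qa, C1qb and C1qc. Tissue macrophages are its main source, and C1q also binds dying cells and helps in their uptake. In the fetal liver, the main site of blood formation at this stage, resident macrophages sit at the centre of erythroblastic islands, where they touch maturing erythroblasts, take up the nuclei these eject, digest the DNA and return iron. Cd5l is a secreted protein of tissue macrophages, Timd4 is a receptor for phosphatidylserine on dying cells, and Clec4f is a lectin of Kupffer cells, the macrophages of the liver.

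Promoters of genes that mark these cells are shown, and 2 of the transcription factors of such macrophages, Spic and Maf, were themselves measured. C1qa, also part of the gate, had no window in the promoter reference used and is not shown. C1qb and C1qc are part of the gate, so their high level in these cells was fixed by the selection. Regulation of the genes by a shared factor was not tested. Each window spans 250 bases before and 50 bases after the annotated start (RefSeq, GRCm38.p6), 5′ to 3′ along the gene. Capitals mark the letters GAGGAA, a core read by ETS factors such as Spi-C, and TGCTGA, a half-site of MAF factors, on either strand, so that they also appear as TTCCTC and TCAGCA. The windows lie, for C1qb, at chr4:136886151-136886450 on the minus strand, for C1qc at chr4:136892865-136893164 on the minus strand, for Cd5l at chr3:87357631-87357930 on the plus strand, for Timd4 at chr11:46810549-46810848 on the plus strand and for Clec4f at chr6:83656067-83656366 on the minus strand.
C1qb: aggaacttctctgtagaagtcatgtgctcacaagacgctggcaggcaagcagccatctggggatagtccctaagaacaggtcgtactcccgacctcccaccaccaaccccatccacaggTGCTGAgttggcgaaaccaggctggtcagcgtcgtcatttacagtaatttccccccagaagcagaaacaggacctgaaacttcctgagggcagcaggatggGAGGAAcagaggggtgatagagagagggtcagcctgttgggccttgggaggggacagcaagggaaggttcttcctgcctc
C1qc: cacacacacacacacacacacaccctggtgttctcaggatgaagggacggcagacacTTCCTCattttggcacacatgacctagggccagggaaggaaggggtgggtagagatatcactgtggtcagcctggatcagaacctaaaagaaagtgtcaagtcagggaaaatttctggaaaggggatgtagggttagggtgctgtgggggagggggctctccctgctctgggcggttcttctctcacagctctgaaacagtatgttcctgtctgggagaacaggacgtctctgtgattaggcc
Cd5l: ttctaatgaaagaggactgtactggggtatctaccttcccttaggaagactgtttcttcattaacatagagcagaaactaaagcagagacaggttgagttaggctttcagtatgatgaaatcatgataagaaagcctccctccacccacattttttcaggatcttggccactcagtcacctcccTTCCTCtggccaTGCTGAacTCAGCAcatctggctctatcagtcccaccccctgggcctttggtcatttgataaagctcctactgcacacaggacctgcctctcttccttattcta
Timd4: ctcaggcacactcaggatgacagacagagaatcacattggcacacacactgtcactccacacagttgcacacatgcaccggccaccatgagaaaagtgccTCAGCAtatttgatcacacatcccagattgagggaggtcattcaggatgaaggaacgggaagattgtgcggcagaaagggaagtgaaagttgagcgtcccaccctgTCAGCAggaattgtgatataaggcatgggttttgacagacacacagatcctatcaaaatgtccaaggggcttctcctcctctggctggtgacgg
Clec4f: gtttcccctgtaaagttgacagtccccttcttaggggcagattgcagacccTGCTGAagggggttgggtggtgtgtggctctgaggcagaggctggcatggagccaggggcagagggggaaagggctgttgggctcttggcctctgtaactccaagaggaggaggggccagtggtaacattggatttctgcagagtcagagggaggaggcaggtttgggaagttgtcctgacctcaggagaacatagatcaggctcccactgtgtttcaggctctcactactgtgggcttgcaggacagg
The windows of C1qb and Cd5l held both motifs, that of C1qc held GAGGAA alone, and those of Timd4 and Clec4f held TGCTGA alone. In Cd5l the 3 matches lay close together, at 66, 54 and 46 bases before the start. No match of one motif overlapped a match of the other. A gene was counted if any of its windows held the motif. GAGGAA stood in 31.3% of the 27025 genes of the reference table and in 36.5% of the 334 measured genes with a window, and TGCTGA in 21.7% and 27.5%. Over the 32851 single windows the shares were 28.3% and 19.5%. Of the 22 genes at least 10-fold higher in C1q-high cells, 17 had a window, and 10 of these 17 (58.8%) held GAGGAA and 7 (41.2%) held TGCTGA. The shares were lower, 44.6% and 35.7%, over the 56 genes with a window among the 76 at least 2-fold higher, which include these 17. A match describes the letters of the window and not binding by a factor.

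The gated cells held a median of 14 C1q transcripts, with a lowest of 10, a 90th percentile of 26 and a highest of 83. The mean per cell was 3.26 ± 2.29 for C1qa, 8.73 ± 4.35 for C1qb and 4.53 ± 3.08 for C1qc (SD over 3112 cells), and 93.2% of the cells held all 3 transcripts. These cells held 37.2% of the C1q transcripts of all cells, so most C1q signal of the section lay in cells below the gate. Depth was nearly the same in both groups, with a median of 165 transcripts other than C1q in C1q-high cells and 164 in cells without C1q. C1q-high cells showed more genes per cell, a median of 61 against 50. This count includes the 3 C1q genes, so a part of the difference was fixed by the selection. Their outline was larger, 54.1 against 46.9 µm², with nuclei of nearly the same area, 26.6 against 26.4 µm². The edge of the gate was gradual. Levels are given as CPM, the counts of a gene scaled to an equal total of transcripts other than C1q in the compared cells. The 654 cells with 9 C1q transcripts stood at 11589 CPM for Cd5l, 4462 for Timd4 and 1640 for Clec4f, and the 502 cells with 10 at 12426, 4640 and 1858.

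The gated cells carried the markers of fetal liver macrophages. A fold is the ratio of the CPM in C1q-high cells over cells without C1q. Cd5l stood at 17826 CPM against 265, a fold of 67.4 (64.9 to 70.0), or 3.22 against 0.0463 transcripts per cell. Timd4 stood at 8427 against 109, a fold of 77.4 (73.1 to 82.1), and Clec4f at 2610 against 51.2, a fold of 51.0 (46.6 to 55.8). Timd4 and Cd5l had the highest and the next highest fold of all genes compared.

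Among the 458 genes with at least 100 transcripts over both groups, 76 (16.6%) were at least 2-fold higher in C1q-high cells, 69 (15.1%) at least 2-fold lower and 22 (4.8%) at least 10-fold higher, with a median fold of 1.01. The lower count depended on the cells taken, with 127 genes and a median fold of 0.781 without the 300 C1q-high cells with at least 10 transcripts of stromal genes, and 125 genes with a gate of 20 C1q transcripts. Of the 20 genes in the list of resident macrophage genes, 19 were at least 2-fold higher and none was lower, with a median fold of 26.5. The sum of the list made up 15.2% of the transcripts of C1q-high cells and 1.12% of those of cells without C1q. The exception was Lyve1, a hyaluronan receptor of sinusoidal endothelium and of some macrophages, at 1236 against 1166 CPM (fold 1.06, 0.981 to 1.14). Adgre1, which encodes F4/80, the surface antigen used to see island macrophages, reached a fold of 35.6. Siglec1, the sialic acid receptor CD169, reached 43.5, the scavenger receptor gene Marco 32.4 and the lysosomal protease gene Ctss 31.4. Vcam1, an adhesion molecule that holds erythroblasts through integrin, was 3.16-fold higher (3.06 to 3.27), the least of the 19. Cd163, the receptor for haemoglobin bound to haptoglobin, was 7.69-fold higher but rested on 66 transcripts in all 3112 cells.

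**Figure D1:**
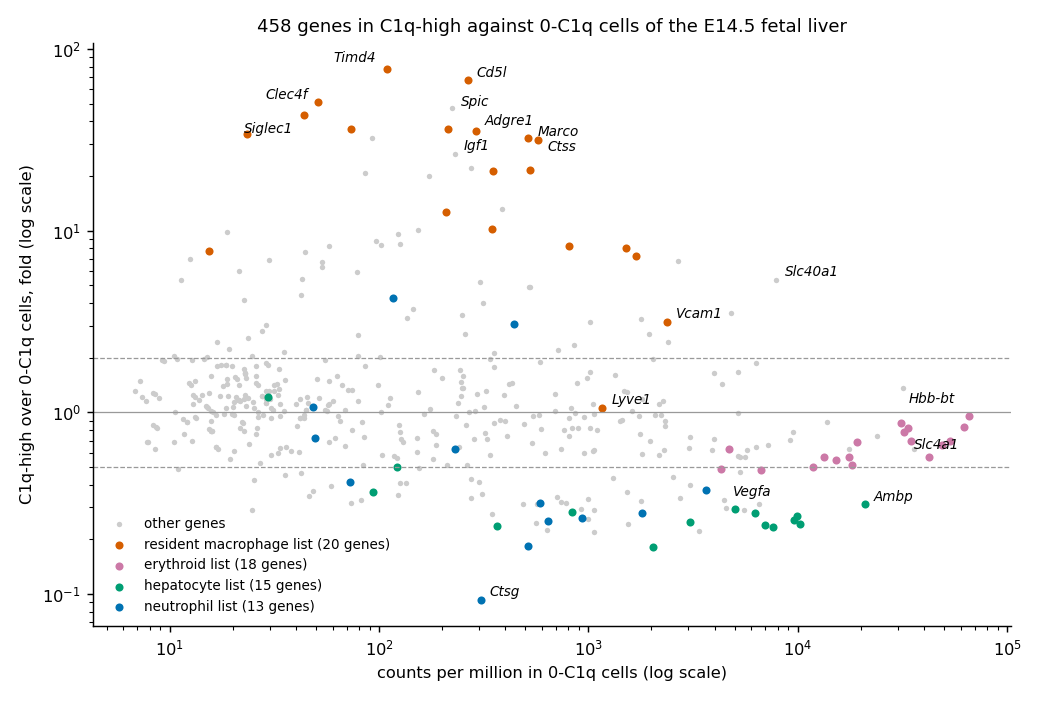
Fold in C1q-high over 0-C1q cells of the E14.5 fetal liver (vertical, log scale) against the CPM in 0-C1q cells (horizontal, log scale), 1 point for each of 458 genes, with 4 gene lists in colour and dashed lines at folds of 2 and 0.5. Resident macrophage genes lie at the top, led by Timd4 at 77.4, and hepatocyte genes lie mostly under the lower line.

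Genes for the uptake and digestion of dead cells stood high as a list, with 8 of 10 at least 2-fold higher, none lower and a median fold of 14.8, but 6 of the 8, Cd5l, Timd4, Cd68, Ctss, Mrc1 and Marco, also belong to the list of resident macrophage genes. Dnase2a encodes the lysosomal nuclease that degrades the DNA of engulfed erythroid nuclei, and it stood at 5804 against 1786 CPM, a fold of 3.25 (3.13 to 3.37). Cd300lf, a receptor for lipids of dying cells, was 8.35-fold higher. The scavenger receptor gene Cd36 at a fold of 1.98 and the secreted nuclease gene Dnase1l3 at 1.77 lay just short of 2-fold.

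Iron and heme genes did not stand on one side. Of 8 genes, 3 were at least 2-fold higher and 3 at least 2-fold lower, with a median fold of 0.723. Slc40a1 encodes ferroportin, the exporter that releases iron from macrophages, and it stood at 42270 against 7864 CPM (fold 5.38, 5.30 to 5.45). Spic, the transcription factor that heme induces in iron-recycling macrophages, was 47.5-fold higher, and Cd163 is the remaining higher gene. The lower genes Hpx (0.240), Hp (0.292) and Cp (0.313) encode plasma proteins made by hepatocytes, for hemopexin, haptoglobin and ceruloplasmin. Trf, for transferrin, stood at 0.626 and Tfrc, the transferrin receptor of erythroblasts, at 0.820.

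Of 4 regulators of macrophage genes, Spic, Nr1h3 (10.1) and Maf (6.78) were at least 2-fold higher and Tet2 stood at 1.30. Nr1h3 encodes the liver X receptor alpha, which senses oxidised cholesterol and is needed for some tissue macrophages. Maf stood at 18163 CPM in C1q-high cells and at 2678 in cells without C1q.

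Growth factors and cytokines were mixed, with 4 of 8 at least 2-fold higher, 1 lower and a median fold of 2.01. Igf1, a growth factor for erythroid and many other cells, stood at 6096 against 230 CPM, a fold of 26.5 (25.2 to 27.8), and Il18 was 19.9-fold higher. Il1b at 4.41 and Il10 at 2.43 rested on 105 and 23 transcripts in C1q-high cells. Vegfa was lower, at a fold of 0.330. Pdgfb at 1.59, Pdgfa at 1.54 and Selenop, for the plasma carrier of selenium, at 1.37 lay between the limits.

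Other myeloid and immune lists were also higher in part. Of 10 genes of interferon response and innate sensing, 8 were at least 2-fold higher and none lower (median 3.86), led by Tlr4, the receptor for bacterial lipopolysaccharide, at 22.0. Of 18 chemokines and receptors, 10 were higher and 1 lower (median 2.40). Of 13 monocyte and other myeloid genes, 7 were higher and 1 lower (median 2.20), with the lectin gene Clec4a3 at 32.4. Neutrophil genes ran the other way, with 8 of 13 lower, 2 higher and a median of 0.374, and Ctsg, for a granule protease of immature neutrophils, had the lowest fold of all genes at 0.0932 (0.0532 to 0.152).

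Transcripts of other cell types were present inside the outlines of C1q-high cells. The 18 erythroid genes made up 37.5% of their transcripts against 51.6% in cells without C1q. Of these genes, 3 were at least 2-fold lower and none higher, with a median fold of 0.646. Slc4a1, for the anion exchanger band 3 of red cells, stood at 52027 against 62521 CPM, and the globin gene Hbb-bt at 63083 against 66079. Per cell, erythroid genes took 36.0% ± 17.5 (SD over 3112 cells) of the transcripts, from 0 to 77.1%, and more than 50% in 25.6% of the C1q-high cells against 60.3% of the cells without C1q. Whether these transcripts lay in the macrophage or in touching erythroblasts was not tested.

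The 15 hepatocyte genes made up 2.24% of transcripts in C1q-high cells and 8.31% in cells without C1q, and 14 of them were at least 2-fold lower, with a median fold of 0.269. Ambp, a plasma protein gene, stood at 6513 against 20902 CPM. The 12 endothelial genes stayed between the limits in every case (median 0.966), as did the 4 proliferation genes (0.686) and the mast cell or eosinophil pair (0.825). The 11 stromal genes had a median of 1.16 and 1 member, Rgs5, above 2-fold. Of these, Col1a1 (1.65) and Col1a2 (1.43) stood at 0.254 and 0.336 without the 300 C1q-high cells with at least 10 stromal transcripts. That selection itself removes stromal transcripts. The 5 megakaryocyte genes had a median of 0.820 with Pf4 at 2.72. The 6 progenitor genes had a median of 0.765 with Cd48 at 4.90 and Kit at 0.397, and the 7 lymphoid genes a median of 1.64 with Cd4 at 3.02. Of the 287 genes in no list, 16 were higher and 38 lower, with a median of 1.00.

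Detection in single cells was compared after each cell was thinned to 100 transcripts other than C1q, which left 2663 C1q-high cells and 66336 cells without C1q and left out 449 and 13246 shallower ones. At least 1 transcript of Cd5l, Timd4 or Clec4f was found in 79.4% of thinned C1q-high cells (77.8 to 80.9) and in 3.95% of cells without C1q. In hepatocyte-rich cells, taken as cells without C1q with at least 10 hepatocyte transcripts, the share was 3.21%. Median depths were 165, 164 and 191 transcripts for the 3 classes. Before thinning the shares were 89.0%, 6.59% and 6.05%. The share in hepatocyte-rich cells is not an independent background, because 35300 of the 66336 thinned cells without C1q belonged to this class. Slc4a1 was found in 93.9% of thinned hepatocyte-rich cells and in 94.4% of all thinned cells without C1q. The hepatocyte-rich cells too were selected to hold no C1q, so their share gives no background for C1q-high cells. Within 8 µm of a C1q-high cell, Cd5l stood at 4744 CPM in all cells below the gate and at 1068 in cells without C1q. The background of transcripts received from touching macrophages was not tested.

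Single markers were less complete. Cd5l was found in 63.9% of thinned C1q-high cells against 1.98% of hepatocyte-rich cells, Timd4 in 51.7% against 0.895%, Spic in 51.1% against 1.94% and Clec4f in 17.2% against 0.414%. Slc40a1 was found in 95.7% of C1q-high cells but also in 50.7% of cells without C1q, and Vcam1 in 45.9% against 19.1%, with 26.0% in hepatocyte-rich cells. Thus Slc40a1 and Vcam1 did not separate the classes by presence alone. Of the 20 resident macrophage genes, a thinned C1q-high cell held 8.29 ± 2.97 and a cell without C1q 0.832 ± 1.08 (SD over cells), and 1 C1q-high cell held none.

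Levels of several macrophage genes followed the number of C1q transcripts. Timd4 stood at 109 CPM in cells without C1q, 454 with 1 to 2 C1q transcripts, 2181 with 3 to 9, 6586 with 10 to 19, 13268 with 20 to 39 and 14385 in the 69 cells with 40 or more. Spic ran from 224 to 19906 and Slc40a1 from 7864 to 60251 over the same classes, each step being higher than the one before. Cd5l was not highest in the last class, with 25233 CPM at 20 to 39 C1q transcripts and 18211 at 40 or more, and Siglec1 stood at 3202 and 3197 in these classes. Lyve1 did not follow C1q, at 1166 CPM without C1q, between 1207 and 1477 in the classes between and 1211 at 40 or more. Slc4a1 stood at 62521 without C1q, 72326 at 3 to 9 and 23103 at 40 or more, so the erythroid transcript was most abundant in cells with a little C1q and least abundant in those with the most. From the class of 10 to 19 C1q transcripts to that of 40 or more, the erythroid share of transcripts went from 42.2% to 17.0%. The median outline went from 49.7 to 109.6 µm² and the median depth from 154 to 274 transcripts. The part of these differences in the levels by C1q class was not tested.

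**Figure D2:**
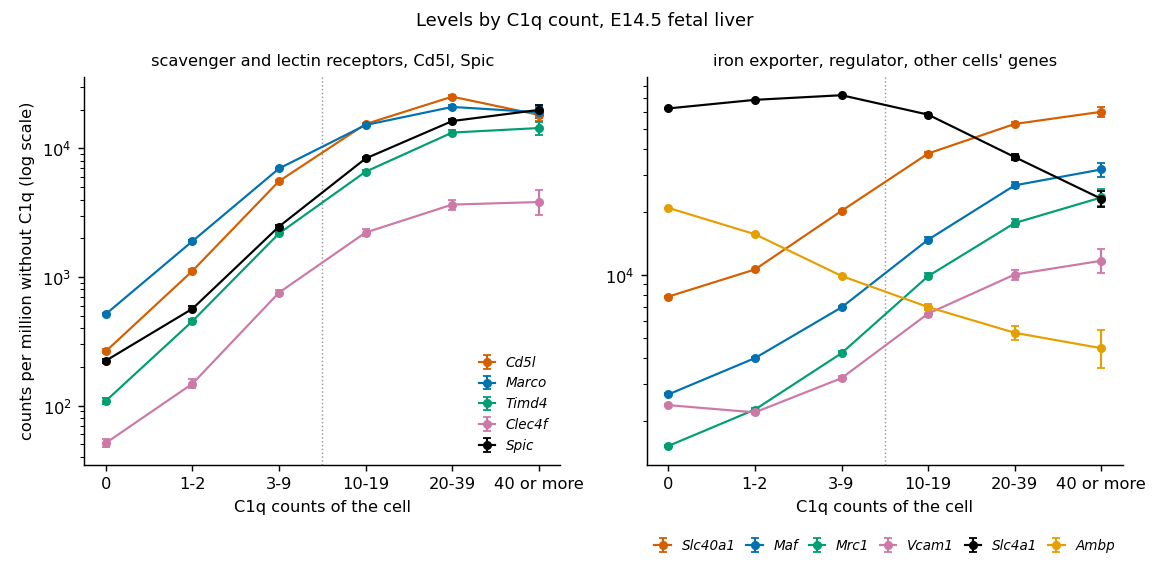
Level in CPM, with C1q left out of the total (log scale), of marker, iron and other-cell genes in classes of cells by number of C1q transcripts, with the dotted line at the gate of 10. Timd4, Spic and Slc40a1 climb through all classes, and Slc4a1 and Ambp are lowest in the class of 40 or more.

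C1q-high cells differed among themselves in Cd5l and Marco, which were found together more often than apart. Of thinned C1q-high cells with Cd5l, 79.2% also held Marco, against 40.0% of those without Cd5l, while Maf was found in 75.5% and 74.3%. Other macrophage genes lay between, with Timd4 in 59.2% and 38.5%, Spic in 57.2% and 40.5% and Igf1 in 49.2% and 33.6%. Cells with a Slc4a1 transcript held Cd5l in 66.4% and Marco in 67.9% of cases, and the 187 cells without one in 30.5% and 27.8%. Maf and Mrc1, the mannose receptor gene, ran the other way, at 74.2% and 62.1% with Slc4a1 and 87.2% and 73.3% without. The 104 thinned cells with Ccr2, a chemokine receptor of monocytes, held Cd5l in 31.7% against 65.2% of the rest and Marco in 37.5% against 66.2%, whereas Adgre1 was found in 62.5% and 60.1%. Ccr2 itself was found in 3.91% of thinned C1q-high cells and in 2.44% of thinned cells without C1q, with a fold of 1.42 by level.

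Erythroid transcripts inside the outline did not go with one level of macrophage genes. With erythroid transcripts also left out of the total, Cd5l stood at 19278 CPM in the 631 C1q-high cells with less than 20% erythroid transcripts, 35675 in the 929 with 20 to 35%, 30915 in the 738 with 35 to 50% and 27868 in the 814 with at least 50%. Timd4 followed with 12074, 17490, 12850 and 9942, and both were highest in the second class. Maf stood at 32207, 34397, 25887 and 19784, and Ccr2 at 2211, 639, 348 and 329, so Ccr2 was highest in the class with the fewest erythroid transcripts. These classes were chosen after the data were seen.

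In all, 342 of the 3112 cells held no transcript of Cd5l, Timd4 or Clec4f. Their C1q was close to that of the other 2770, a mean of 15.0 against 16.7, and their depth was as high, a median of 170.5 against 165 transcripts. They held more Ccr2, 2622 against 336 CPM, a fold of 7.81 (6.26 to 9.73), and more F13a1, a gene of monocytes and of some tissue macrophages, with a fold of 5.56. They also held more transcripts of connective tissue and of the liver's surface lining, with Mfap4 at a fold of 10.6, the keratin gene Krt19 at 9.61, the mesothelial gene Upk3b at 7.68 and the collagen gene Col1a1 at 7.44. Marco (0.263), Plbd1 (0.402), Nr1h3 (0.446), Folr2 (0.469) and Spic (0.520) stood lower. These genes were chosen after their values were seen. No count over the resident macrophage list is given for this split, so they do not describe that list as a whole.

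C1q-high cells were also split by their transcripts of the 11 stromal genes, at limits chosen after the data were seen. No stromal transcript was found in 1800 cells (57.8%), 1 to 9 in 1012 and at least 10 in 300 (9.64%). At least 1 transcript of Cd5l, Timd4 or Clec4f was found in 94.5%, 88.8% and 56.7% of these classes, so the split overlapped in part with the one by these markers. In the same order the median outline was 48.6, 57.5 and 92.7 µm², and the erythroid share of transcripts 41.5%, 38.5% and 18.1%. Cd5l stood at 22768, 15581 and 3496 CPM, Marco at 20484, 15514 and 4154, and Timd4 at 9457, 8323 and 4447. Other macrophage genes were also lower in the cells richest in stromal transcripts, with Spic at 11876, 10861 and 4755, Folr2 at 3062, 2491 and 1427, Igf1 at 6679, 6172 and 3482, Slc40a1 at 44968, 42924 and 29342 and Adgre1 at 10912, 9996 and 8601. Ctss, at 18573, 17130 and 18405, and Maf, at 17375, 18397 and 20783, did not show this course. Ccr2 stood at 264, 623 and 1902 and F13a1 at 545, 1158 and 4615. The part of transcripts from touching stromal cells in the wider outlines was not tested.

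Many of the 300 cells with at least 10 stromal transcripts lined the border of the tissue, 97 of them within 20 µm and 82 at 20 to 40 µm. The 5 pieces held 3099 of the C1q-high cells, and distance to the edge of a piece was measured after the map had been seen. Within 20 µm of the edge, 134 of 2772 cells were C1q-high (4.83%, 4.07 to 5.70), against 2.46% (2.34 to 2.58) at more than 160 µm, and 72.4% of these edge cells held at least 10 stromal transcripts against 2.5% in the interior. This went for all cells at the border, where stromal genes took 12.46% of the transcripts of all cells and 11.97% of those of C1q-high cells, against 0.857% and 0.677% in the interior. Cd5l stood at 4292, 8508, 12808, 17312 and 22971 CPM at 0 to 20, 20 to 40, 40 to 80, 80 to 160 and over 160 µm, and Marco at 6763, 9032, 14365, 17320 and 19775. Both were thus lowest at the edge and higher with every step inward. Adgre1, at 9722 in the first and 9976 in the last class, and Ctss, at 19347 and 18009, showed no such course. Timd4 (5073 and 8807), Spic (6113 and 11240) and Igf1 (3739 and 6153) were also lower in the first class than the last. Maf (19672 and 17316) and Mrc1 (12974 and 12145) were not. Ccr2 stood at 2374 CPM in the first class and between 283 and 748 in the others, but at 297, on only 2 transcripts, in the first class and between 244 and 495 in the others once the cells with at least 10 stromal transcripts were left out. Outlines were also wide at the edge, with a median of 181 µm² against 51.7 µm² in the interior. Without the cells with at least 10 stromal transcripts, Cd5l stood at 12020 CPM in the 37 edge cells left and at 23489 in the interior, so a smaller difference of the same direction remained. Marco stood at 18549 and 20217 CPM in these cells. At 20 to 40 µm Cd5l stood at 11593 and Marco at 11942, so neither climbed with every step.

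**Figure D3:**
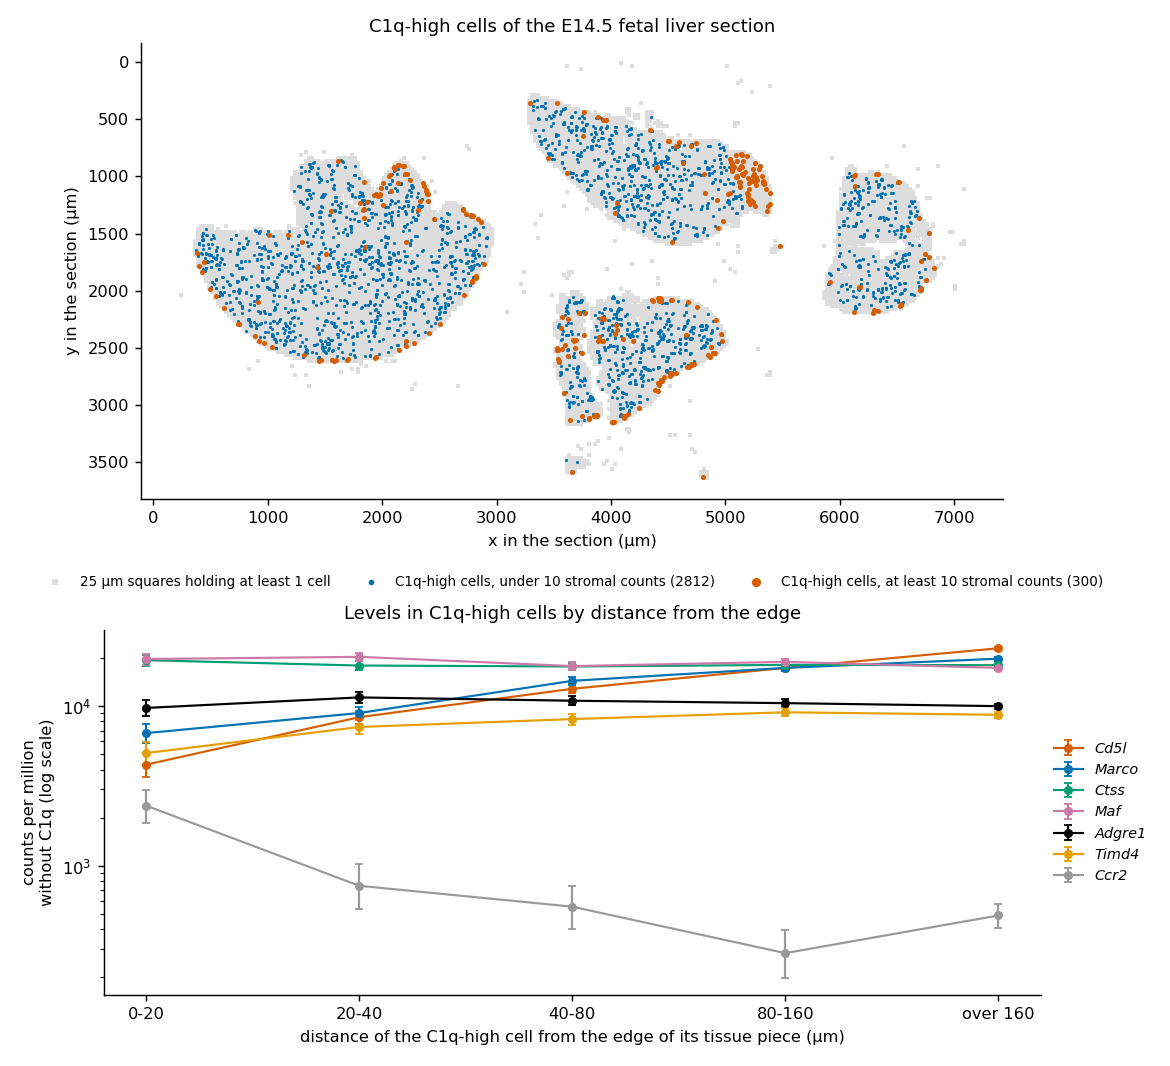
Upper panel, positions of the 3112 C1q-high cells in the E14.5 fetal liver section (µm), coloured by fewer than 10 (2812 cells) or at least 10 (300 cells) stromal transcripts, over all cells in grey. Lower panel, CPM (log scale) of 7 genes in C1q-high cells by distance from the tissue edge (µm). Many of the cells with at least 10 stromal transcripts follow the borders, and Cd5l and Marco climb inward while Ctss, Maf and Adgre1 stay level. Timd4 is also lowest at the edge.

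Across the section as a whole, C1q-high cells were found in every tile of 500 µm with at least 1000 cells. They made up between 1.47% and 4.10% of cells, with a median of 2.52% over 31 tiles. Over the 26 tiles with at least 50 C1q-high cells, Cd5l ranged from 6666 to 28515 CPM and Clec4f from 619 to 5068, while Slc40a1 ranged only from 35952 to 53896. Among the 5 pieces, the share of C1q-high cells lay between 2.37% and 3.79%.

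C1q-high outlines often lay next to each other at the gate of 10 transcripts. The median distance from the centre of one to the nearest other was 9.53 µm (43.6 µm for the 715 cells with at least 20 C1q transcripts), with the middle of the distribution between 6.89 and 25.5 µm, and 52.4% had another within 10 µm. For scale, the median distance from any cell to its nearest neighbour was 5.87 µm, and from a cell without C1q to the nearest C1q-high cell 26.4 µm. Linked at 20 µm, the 3112 cells formed 1744 groups, of which 956 were single cells and 460 pairs, and 328 groups of 3 or more took in 39.7% of the cells, with 13 in the largest. Whether neighbouring outlines divide the transcripts of a single branched macrophage was not tested. Cells below the gate held 2.88 C1q transcripts on average within 8 µm of a C1q-high cell, 1.63 at 8 to 12 µm, 0.722 at 12 to 16 µm and 0.482 at 16 to 20 µm, with 0.431 to 0.521 in all classes farther out.

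**Figure D4:**
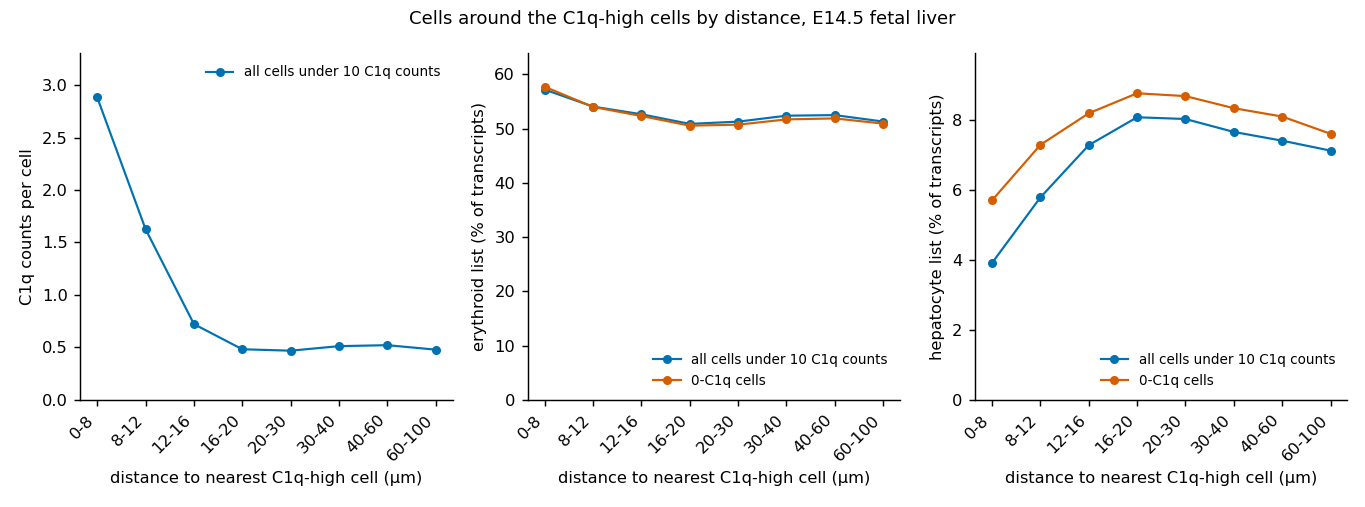
C1q transcripts per cell and share of erythroid and hepatocyte transcripts (%) in all cells below the gate (blue) and, for the shares, in cells without C1q (orange), by distance from the centre of the nearest C1q-high cell up to 100 µm. In cells below the gate C1q goes from 2.88 to 0.482 transcripts per cell within 20 µm, and the nearest plotted class has the highest erythroid (57.2%) and the lowest hepatocyte share (3.91%).

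Up to 100 µm, the erythroid share of cells below the gate was highest in those nearest to C1q-high cells. The share at so short a distance from cells without C1q was not computed, so whether this course is particular to C1q-high cells was not tested. In cells below the gate the erythroid share was 57.2% within 8 µm, 54.1% at 8 to 12 µm, 52.6% at 12 to 16 µm and 50.9% at 16 to 20 µm, and the hepatocyte share went from 3.91% to 8.07% over the same steps. Cells without C1q alone gave 57.7% at the shortest distance and 50.5% at 16 to 20 µm, so cells without any C1q showed the same course. The 174 cells below the gate at more than 100 µm, few in number, held 63.5% erythroid transcripts. The nearest cells were shallower, with a median of 140 transcripts against 168 at 8 to 12 µm. Summed over all other cells below the gate within 40 µm, the island radius used here, erythroid genes took 52.3% of transcripts around C1q-high cells. Around cells without C1q they took 53.4%, a ratio of 0.981, and within 20 µm the ratio was 1.00. Neighbouring C1q-high cells were left out of these sums, also for the other lists and genes. Of the cells without C1q, 60.3% held more than 50% erythroid transcripts, so the comparison centres were themselves mostly erythroid. The stromal share was 1.27 times as high around C1q-high cells at 40 µm, and the resident macrophage share 1.13 times. The genes most in excess there were Upk3b (1.65), Upk1b (1.64), Mfap4 (1.54), Nnat (1.54) and Lrp2 (1.49), of which Upk3b marks the lining and Mfap4 the connective tissue. Col1a1 stood at 1.40.

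The position of single transcripts within the outlines differed by gene list. In C1q-high cells, 53.4% of the transcripts other than C1q lay over the nucleus, 50.6% of C1q transcripts, 53.6% of resident macrophage transcripts and 55.8% of erythroid transcripts. Stromal transcripts lay over the nucleus in 39.2% and hepatocyte transcripts in 40.1%, and 21.4% of the stromal transcripts lay more than 2 µm outside the nucleus against 7.25% of the resident macrophage transcripts. These positions were pooled over cells with outlines of different size, and the 300 cells with at least 10 stromal transcripts had the widest outlines, so the part of outline size in the difference was not tested. Of the erythroid transcripts, 6.21% lay beyond 2 µm. Among single genes, Siglec1 with 62.7% and Spic with 61.6% were more often over the nucleus than the C1q genes, and Col1a1 with 35.4% less often.

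The same gate was applied to the other sections measured on the 477-gene panel, to see which values of the fetal liver cells were also found elsewhere. It held 592 cells of P8 bone marrow (1.13%), 12060 of the spleen without treatment (11.1%) and 9045 of the spleen after PHZ (9.56%). On the larger panel it held 60 cells of the E13.5 liver (1.14%) and 243 of the aged bone marrow (0.169%), which were not compared by gene because panel and outlines differed. The gate is a raw count, and depth differed between sections. Median transcripts per cell were 167 in the E14.5 liver, 109 in P8 marrow and 84 in the untreated spleen. They were 104 after PHZ, 190 in the E13.5 liver and 60 in aged marrow. The shares of gated cells are therefore not comparable between sections. Tissue, age, treatment and section cannot be told apart in these values, and the erythroid share of the gated cells also differed, at 37.5% in the E14.5 liver, 23.5% in the P8 marrow, 17.7% after PHZ and 7.66% in the spleen without treatment.

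Clec4f stood far apart in the fetal liver cells, at 2610 CPM (2478 to 2747) with 1465 transcripts, and stood under 18 in the gated cells of marrow and both spleens. There it was no higher than in cells without C1q of the same section, with a ratio of 0.617 (0.0738 to 2.28) on 2 transcripts in the marrow, 0.582 (0.346 to 0.943) on 22 in the PHZ-treated and 0.294 (0.162 to 0.502) on 16 in the untreated spleen. Timd4 stood at 8427 CPM in the fetal liver cells, 2354 in marrow, 1910 after PHZ and 3051 in untreated spleen, where cells without C1q held more (4419 CPM, a ratio of 0.691). Cd5l stood at 17826, 1327, 8435 and 11666. Folr2, a folate receptor gene of resident macrophages, stood at 2656 in the liver and 2434 in the marrow but at 365 and 180 in the spleens. Marco was high in the liver and the PHZ-treated spleen, at 16684 and 13892, and lower in the marrow and the untreated spleen, at 3786 and 3257. In the untreated spleen the ratio to cells without C1q was 0.885 for Marco and 0.817 for Siglec1, so for these genes too the levels there were not raised in the gated cells. In the PHZ-treated spleen the ratio was 16.9 for Marco, 19.5 for Siglec1 and 20.1 for Timd4. The intervals of these levels cover counting error only, so with 1 section for each condition they give no measure of a difference between conditions.

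Other genes were lowest in the fetal liver cells. Vcam1 stood at 7525 CPM in the liver, 12246 in marrow, 18132 after PHZ and 33375 in untreated spleen. Cd163 stood at 118 in the liver against 3251, 590 and 3784, and Ms4a7 at 793 against 5403, 2709 and 2714. Igf1 and Siglec1 varied less, between 6027 and 8458 and between 1420 and 1896. With every cell thinned to 50 transcripts, Timd4 was found in 34.6% of the gated liver cells, 11.5% in marrow, 7.28% after PHZ and 11.1% in untreated spleen, and Vcam1 in 30.5%, 42.4%, 52.6% and 78.6%, the same order as by level for Vcam1.

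**Figure D5:**
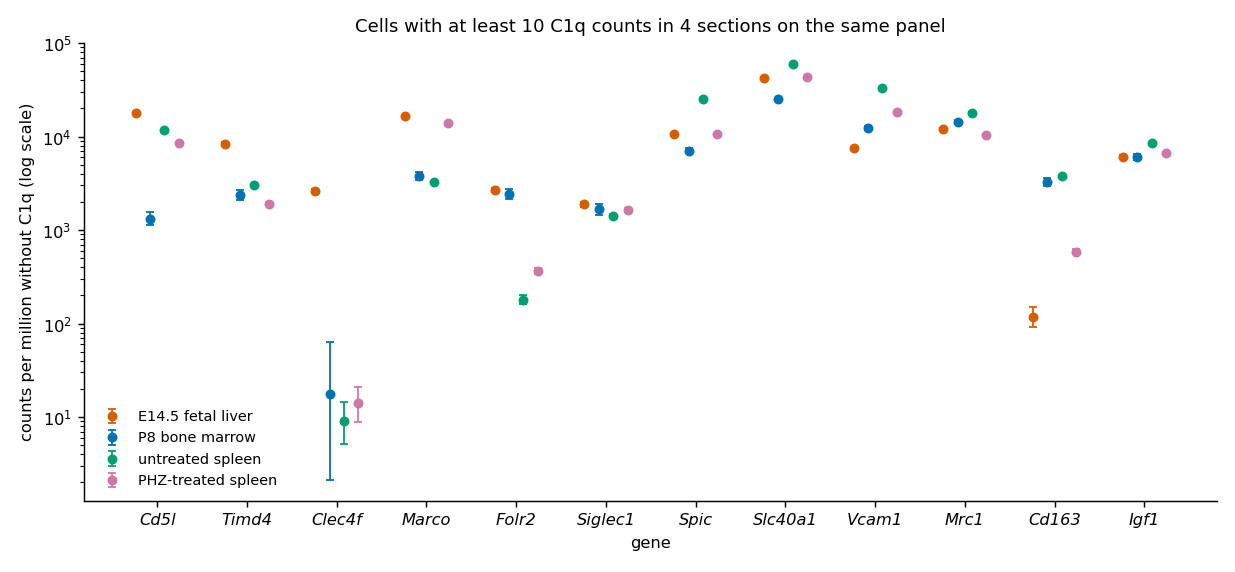
Level in CPM, with C1q left out of the total (log scale, exact Poisson 95% intervals) of 12 genes in cells with at least 10 C1q transcripts of the 4 sections on the 477-gene panel, 1 section for each condition. Clec4f stands at 2610 in the E14.5 liver and under 18 in the other sections, and Vcam1 is lowest in the liver.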

How the data were processed

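The 6 sections of 5 µm were imaged by the authors on the Xenium platform. The deposited files give whole-number counts, given for every gene in every cell outline and without normalization, the position and outline area of each cell, and for the E14.5 liver a table of single transcripts with a deposited quality score. The run descriptions name Xenium Onboard Analysis 1.7.1.0 for the sections on the 477-gene panel and 3.1.0.4 for the others, whereas the methods name Space Ranger. Outlines on the smaller panel are expanded nuclei and may hold transcripts of touching cells. Doublets were not called and no transcripts were removed. At a score of at least 20, 97.2% of transcripts lay in a cell, and counts rebuilt from this table differed from the deposited counts in 0 entries.

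Cells with at least 5 detected genes entered the comparisons (3112 C1q-high and 79582 without C1q). Counts were summed per class and divided by the class total without C1q, in Python 3.11.15 (numpy 2.4.6, scipy 1.17.1, pandas 2.3.3, matplotlib 3.10.9), and genes with at least 100 counts over both classes were compared. Ratios carry exact conditional intervals. The ratio and interval steps were tested on data simulated with Poisson counts, which hold no further variation between cells or places. The intervals were therefore not tested for such variation. With 1 section per condition no p-value is given, and cells are not replicates. Probes differ in number and efficiency between genes, so levels were compared within a gene only.

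The members, the 18 gene lists and the alternatives were chosen with earlier results of these data known. Named are the markers of the cells, every compared gene of the resident macrophage, iron and heme, uptake, regulator and growth factor lists, the 10 genes with the highest and the 5 with the lowest fold among those with at least 1000 counts, and of each other list the 2 genes with most counts in C1q-high cells. Not every gene under this rule is reported here. Genes named beyond it were chosen after their values were seen, as were the distance to the tissue edge and the splits of C1q-high cells by stromal and erythroid transcripts. Alternatives changed the gate, the comparison cells, the scaling, the part of the cell, the filters, the radius and the thinning.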

Additional observations from a re-analysis of the deposited data

How the results depend on the processing

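The number of genes at least 2-fold higher in C1q-high cells stayed between 54 and 103 over all alternatives (76 as reported). The number at least 2-fold lower (69) was 125 with a gate of at least 20 C1q transcripts and 127 without C1q-high cells that held at least 10 stromal transcripts, an alternative added after seeing the data, and lay between 56 and 87 otherwise. The median fold of the resident macrophage list (26.5) was 15.9 with a gate of at least 5 and 36.0 with at least 20, 11.8 against all cells under the gate, 28.4 against cells without C1q at least 30 µm away, 24.3 with C1q in the total, 22.8 over the nucleus only and 22.3 without the cells rich in stromal transcripts. The erythroid ratio at 40 µm (0.981) turned to 1.00 (53.4% against 53.3%) at 20 µm and to 1.00 (53.5% against 53.4%) without the cells rich in stromal transcripts. It was 0.994 with a gate of 5, 0.958 with a gate of 20, 0.980 against all cells under the gate and 0.976 without Hbb-bt and Slc4a1. The median distance to the nearest other C1q-high cell (9.53 µm) was 7.07 µm with a gate of 5 and 43.6 µm with a gate of 20, where fewer cells were left (715). The share with Cd5l, Timd4 or Clec4f (79.4%) was 66.9% thinned to 50, 83.3% thinned to 200, 65.4% with a gate of 5, 85.1% with a gate of 20 and 84.1% without the cells rich in stromal transcripts. Beyond what fewer cells or transcripts give by construction, the cause of these shifts was not tested. No named gene changed direction across 1-fold among those at least 2-fold higher or lower. Il10 (1.97), Csf3r (1.92), Mpo (0.555) and Kit (0.503) missed 2-fold with a gate of 5. With a gate of 20, Cd36 (2.43), Dnase1l3 (2.03), Col1a1 (2.01), Ube2c (0.483) and Cpa3 (0.489) passed it, as did Cd36 with mean counts per cell (2.04) and Dnase1l3 over the nucleus only (2.11). Col1a1 (0.254) and Col1a2 (0.336) were lower without the cells rich in stromal transcripts, which that selection itself removes. No paired analysis was possible because each condition has 1 section and no result comes from a test. Genes with few transcripts, such as Il10 with 23 and Cd163 with 66 in C1q-high cells, are limited by depth.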

Other observations

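Of the 287 genes outside the lists, 16 were at least 2-fold higher in C1q-high than in 0-C1q cells and 38 at least 2-fold lower. Over all 458 genes compared, 76 (16.6%) were higher and 69 (15.1%) lower. Some of the 16 are given here as examples. Hpgd, for the enzyme that inactivates prostaglandins, stood at 1570 against 303 CPM, a fold of 5.19 (4.82 to 5.58). Gatm, for the first enzyme of creatine synthesis, was 3.13-fold higher, Il4ra, for a chain of the interleukin-4 receptor, 2.69-fold and the dipeptidase gene Cndp2 2.45-fold. C5ar1, the receptor for the complement fragment C5a, was 6.74-fold higher (5.74 to 7.89) on 202 transcripts. All of these genes were chosen after their values were seen.

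Members of the list of chemokines and receptors, in which 10 of 18 genes were at least 2-fold higher, differed in direction. Ccl7 stood at a fold of 9.83 on 103 transcripts, Ccl2 at 8.21 on 265, Ccl4 at 6.87 on 115 and Ccl3 at 6.33 on 190. These are chemokines that draw monocytes, and their counts over 3112 cells correspond to far less than 1 transcript per cell. Cxcl1, for a chemokine of neutrophils, stood at 0.328 on 15 transcripts, and the interferon-induced chemokine gene Cxcl10 at 0.824 (0.742 to 0.912) on 385. These examples were chosen after their values were seen.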
